A study of Homo sapiens with 6 samples.

Results

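The 10 genes described here belong to base excision repair, the pathway that removes oxidised, deaminated and other small damaged bases from DNA. They were taken by name from the 17297 gene symbols of the count table, and each of the 10 was present. They are MUTYH, OGG1, NEIL1, NTHL1 and UNG, which encode DNA glycosylases, APEX1, which encodes the AP endonuclease, XRCC1 and PARP1, which encode a scaffold protein and a sensor of strand breaks, POLB, which encodes a DNA polymerase, and LIG3, which encodes a DNA ligase. Among these genes, UNG stood 1.24 times as high in cells overexpressing Gα13 as in control cells, and the remaining 9 means lay between 0.896 and 1.07 times the control. No gene of the 10 was called changed when the lines were compared without pairing the libraries, when 0.139% of all genes were called. With paired libraries, when 19.7% of all genes were called, UNG was the member called. UNG lies on chromosome 12, where 72.6% of genes with a mean of at least 1 CPM (counts scaled to the TMM-normalised library size) were called with pairs, and it was no longer called once each chromosome was centred on its own median (log2 difference 0.03, edgeR adjusted p = 0.769).

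LNCaP is an established human prostate cancer cell line that grows as androgen-sensitive epithelial cells. In this study LNCaP cells carried either the empty retroviral vector (pBabe-vector, genotype labelled WT) or the same vector with wild-type GNA13 cDNA (pBabe-GNA13, labelled GNA13 overexpression), and GNA13 encodes Gα13, a G protein subunit that signals to RhoA. Each condition was 1 stably transduced line kept under puromycin, with no other treatment and the same medium. From each line 3 biological replicates were plated on 10-cm plates, grown for 48 h and sequenced as RNA-seq libraries, so that 6 libraries entered each comparison. Differences between the lines cannot be told apart from differences between these 2 transduced cell populations, and the p-values measure only the spread between plates of the same line.

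Base excision repair begins when a DNA glycosylase flips a damaged base out of the helix and cuts it from its sugar. The AP endonuclease then nicks the backbone at the empty site, PARP1 senses the nick and XRCC1 holds the late enzymes together, a polymerase fills the gap and a ligase closes it. In cells under oxidative stress the best known substrate is 8-oxoguanine, which pairs wrongly with adenine and is handled by OGG1 (across from cytosine) and by MUTYH (which removes the adenine). Several of the enzymes also work in mitochondria, where LIG3 is the ligase of mitochondrial DNA.

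The labels were checked first. GNA13 lay between 747 and 886 CPM in the pBabe-GNA13 libraries and between 65.4 and 76.7 in pBabe-vector, log2 fold change 3.54 (SE 0.11, edgeR adjusted p = 9.12e-05). Each library held 33002160 to 40628970 counts, and a gene with 3 counts would lie at 0.0715 to 0.0935 CPM. All 10 markers of LNCaP cells, KLK3 among them, were at 1 CPM or more, and they summed to 6624 to 9453 CPM in pBabe-GNA13 and 5687 to 8461 CPM in pBabe-vector. Of 5 markers of PC3 and mesenchymal cells, 1 reached 1 CPM, and their sums were 4.55 to 7.01 CPM in pBabe-GNA13 against 2.55 to 4.19 in pBabe-vector. Basal, stromal and blood markers (6 of 8 in the table) summed to 21.7 to 59.8 CPM in pBabe-GNA13 and 17.0 to 28.6 in pBabe-vector. Of these 6, 5 had a positive log2 fold change and 1 a negative, and HBB was the largest part of the difference in sums. HBB had 30.3, 0 and 33.5 CPM in pBabe-GNA13 and 3.05, 0 and 3.085 in pBabe-vector. KRT5 had 3.08, 0 and 3.72 against 0.57, 0 and 0.59 CPM. For each of these genes the values of 0 belong to the replicate 2 libraries. With the pairs as a block, 4 of the 5 mesenchymal and 3 of the 6 basal, stromal and blood markers were called higher in pBabe-GNA13. So were 5 of the 10 LNCaP markers, beside 9.32% of all genes called higher. The part of these markers in the results below was not tested. In bulk RNA a change in the share of cells that carry a marker and a change in RNA per cell cannot be told apart. The libraries form 3 pairs across the lines, called here the std pair (the headings tag 1 library of each line so), the replicate 2 pair and the replicate 3 pair.

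For 3 members the stretch of DNA in front of the gene is shown, because UNG was the member called with paired libraries and because NTHL1 and APEX1 each share a short start region with a neighbour that was measured in the same libraries. Sequences are from RefSeq (GRCh38.p14), whose promoter table held 9 of the 10 members, and end at the base before the start annotated in Gencode 44. They are printed 5′ to 3′ on the strand of the gene, and capitals mark matches on either strand to the motifs searched, which did not overlap one another.
NTHL1 (chr16:2047867-2047966, minus strand): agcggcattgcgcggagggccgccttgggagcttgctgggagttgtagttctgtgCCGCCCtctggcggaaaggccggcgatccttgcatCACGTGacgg
APEX1 (chr14:20455090-20455190, plus strand): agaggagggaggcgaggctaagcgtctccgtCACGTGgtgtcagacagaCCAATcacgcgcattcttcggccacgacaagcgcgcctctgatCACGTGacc
UNG (chr12:109097347-109097596, plus strand): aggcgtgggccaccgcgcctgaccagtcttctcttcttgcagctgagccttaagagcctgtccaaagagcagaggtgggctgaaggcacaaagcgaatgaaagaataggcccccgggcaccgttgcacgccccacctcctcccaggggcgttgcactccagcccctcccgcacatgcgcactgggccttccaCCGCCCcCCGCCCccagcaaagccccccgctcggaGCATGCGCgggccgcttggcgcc
The NTHL1 window is the whole 100 bases between the starts of NTHL1 and TSC2, which run in opposite directions, and it held 1 E-box (CACGTG) and 1 GC box (GGGCGG, read here on the other strand). The 101 bases between OSGEP and APEX1 held 2 E-boxes and 1 CCAAT box. Windows of these lengths held an E-box in 3.16% and 3.15% of the 35116 promoter entries of the table, and a GC box in 29.6% and 29.5%, with a CCAAT box in 18.8% and 19.0%. The 250 bases before UNG held 2 GC boxes and 1 core of the NRF1 motif (GCATGCGC), against 42.6% and 2.63% of entries with at least 1 of these. An E2F motif (TTTGGCGC) and the core of the antioxidant response element (TGACNNNGC) had no match in the 3 windows, where 0.211% to 0.55% and 4.94% to 10.9% of entries held them. A match says only that the letters are there.

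The RNA of the glycosylases that deal with 8-oxoguanine had nearly the same mean in both lines. MUTYH (chromosome 1, 45329163 to 45340893, minus strand, Gencode 44) stood at 36.2, 33.9 and 45.2 CPM in the std, replicate 2 and replicate 3 libraries of pBabe-GNA13, and at 36.3, 33.3 and 41.4 CPM in the same order of pBabe-vector. Its highest value in each line came from replicate 3, the lines overlapped, and the means of 38.4 ± 5.95 and 37.0 ± 4.05 CPM (SD, n = 3) gave a log2 fold change of 0.05 (SE 0.14, 95% interval −0.27 to 0.38, edgeR adjusted p = 0.996). OGG1, on chromosome 3 (9749944 to 9788219, plus strand), was lower expressed, with 19.5, 19.9 and 23.8 CPM in pBabe-GNA13 and 21.6, 18.9 and 24.7 CPM in pBabe-vector. The lines overlapped here too, with replicate 3 again the highest of each, and the log2 fold change was −0.05 (SE 0.14, interval −0.38 to 0.29, edgeR adjusted p = 1.0).

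NEIL1 and NTHL1 remove oxidised pyrimidines such as thymine glycol. NEIL1 (chromosome 15, 75346955 to 75357115, plus strand) was measured at 15.4, 28.2 and 16.8 CPM in pBabe-GNA13 and at 22.4, 24.7 and 14.9 CPM in pBabe-vector. It was high in both replicate 2 libraries and low in replicate 3 of pBabe-vector, the reverse of most other members, and within the std pair alone it was lower in pBabe-GNA13 by a log2 difference of −0.54 while the other pairs differed by 0.19 and 0.17. Over all libraries its log2 fold change was −0.04 with the widest interval of the 10, −0.68 to 0.60 (edgeR adjusted p = 1.0). NTHL1, at 2039815 to 2047866 on the minus strand of chromosome 16, had 24.8, 23.9 and 32.8 CPM in pBabe-GNA13 and 29.4, 28.9 and 32.7 CPM in pBabe-vector. The std and replicate 2 libraries of pBabe-GNA13 lay below every pBabe-vector library, and the replicate 3 libraries of the lines were level. The log2 fold change of NTHL1 was −0.16 (SE 0.15, interval −0.50 to 0.18, edgeR adjusted p = 0.910), and with the pairs as a block −0.17 (SE 0.07, edgeR adjusted p = 0.0928).

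UNG encodes uracil-DNA glycosylase, with a nuclear form that follows the replication fork and a mitochondrial form from another start, and its transcript is known to rise as cells enter S phase. It lies on chromosome 12 (109097597 to 109126725, plus strand). The pBabe-GNA13 libraries held 89.5, 78.7 and 124.8 CPM and the pBabe-vector libraries 62.7, 65.7 and 107.5 CPM. Replicate 3 was far above the others in each line, so that the lines overlapped, yet each pBabe-GNA13 library stood above its own partner, by log2 differences of 0.51, 0.26 and 0.21 in the std, replicate 2 and replicate 3 pairs. The means were 97.6 ± 24.1 and 78.6 ± 25.1 CPM (SD, n = 3), and the log2 fold change was 0.31 without the block (SE 0.25, interval −0.26 to 0.89, edgeR adjusted p = 0.875) and 0.33 with it (SE 0.06, interval 0.21 to 0.45, edgeR adjusted p = 0.000116).

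**Figure D1:**
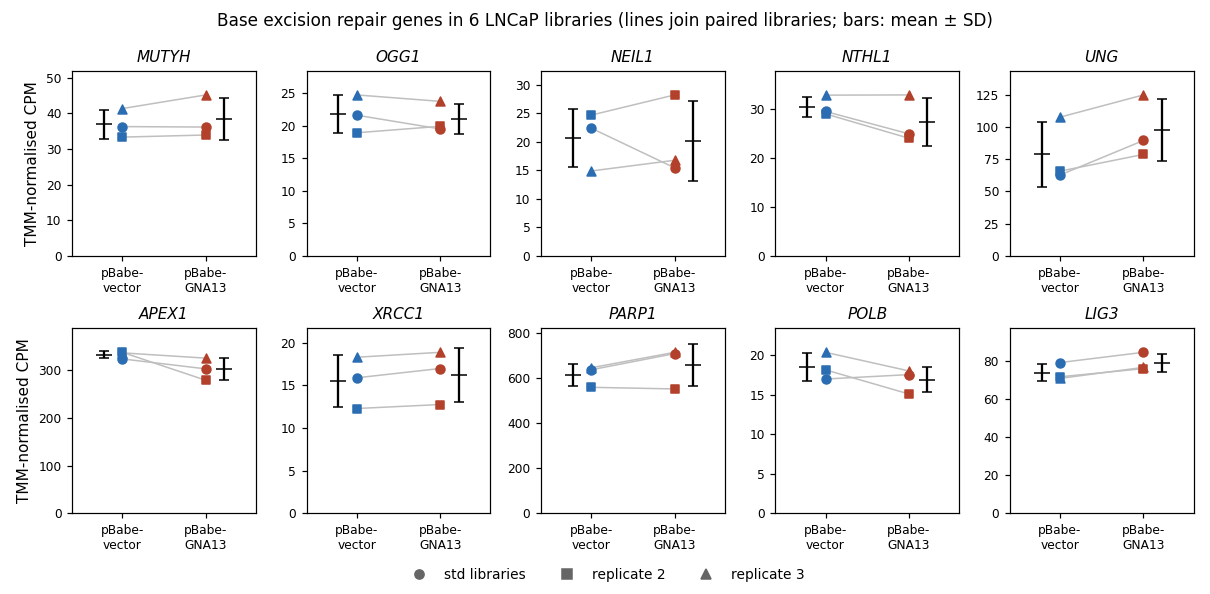
Level of each of the 10 genes in every library, in TMM-normalised CPM from 0, with pBabe-vector in blue and pBabe-GNA13 in red, grey lines joining the libraries of a pair and bars giving the mean ± SD of 3 libraries. The lines of cells overlap for all 10 genes, and the 3 grey lines of UNG all climb while those of APEX1 all descend.

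APEX1 encodes the main AP endonuclease, which also acts on transcription factors as a redox protein. It occupies 20455191 to 20457772 on the plus strand of chromosome 14. Its values were 302.6, 278.7 and 325.1 CPM in pBabe-GNA13 and 323.5, 337.3 and 336.2 CPM in pBabe-vector. Only replicate 3 of pBabe-GNA13 reached the range of pBabe-vector, and within each pair the pBabe-GNA13 library was the lower, by log2 differences of −0.10, −0.28 and −0.05. The log2 fold change was −0.14 (SE 0.10, interval −0.36 to 0.09, edgeR adjusted p = 0.839), and with the block −0.14 (SE 0.05, interval −0.25 to −0.03, edgeR adjusted p = 0.0648). It passed the threshold in the blocked comparison made without the std pair (−0.16, edgeR adjusted p = 0.0444).

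XRCC1 has no enzyme activity of its own and brings POLB and LIG3 to the nick. Located on chromosome 19 (43543311 to 43580473, minus strand), it was counted at 17.0, 12.8 and 18.9 CPM in pBabe-GNA13 and at 15.9, 12.3 and 18.3 CPM in pBabe-vector. The pairs moved almost in step: the replicate 2 libraries were the lowest of each line and replicate 3 the highest, and within pairs the lines differed by log2 values of 0.10, 0.05 and 0.04. The unpaired log2 fold change was 0.07 (SE 0.20, interval −0.40 to 0.53, edgeR adjusted p = 1.0).

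PARP1, which marks broken DNA with poly(ADP-ribose), had the largest counts of the 10. On chromosome 1 (226360210 to 226408154, minus strand), it had 709.8, 552.7 and 715.5 CPM in pBabe-GNA13 and 637.8, 560.0 and 646.7 CPM in pBabe-vector. Replicate 2 was the low library of each line, the pBabe-GNA13 values enclosed those of pBabe-vector, and the log2 fold change was 0.10 (SE 0.13, interval −0.21 to 0.41, edgeR adjusted p = 0.957).

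Neither of the members for gap filling and sealing was called changed in RNA, with or without the block. POLB, which also trims the sugar left by the endonuclease, lies on chromosome 8 (42338454 to 42371808, plus strand) and had 17.6, 15.1 and 18.0 CPM in pBabe-GNA13 and 17.0, 18.2 and 20.4 CPM in pBabe-vector. The lowest value was replicate 2 of pBabe-GNA13 and the highest replicate 3 of pBabe-vector, with the rest between, for a log2 fold change of −0.13 (SE 0.13, interval −0.44 to 0.17, edgeR adjusted p = 0.910). LIG3, from 34980512 to 35009743 on the plus strand of chromosome 17, was measured at 84.3, 75.8 and 76.4 CPM in pBabe-GNA13 and 79.0, 71.5 and 70.7 CPM in pBabe-vector. It was the most even member, with the highest library 1.19 times the lowest, and the std libraries led in each line. Within pairs LIG3 was higher in pBabe-GNA13 by 0.09, 0.08 and 0.11 on the log2 scale, and its log2 fold change was 0.10 (SE 0.09, interval −0.12 to 0.32, edgeR adjusted p = 0.910).

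Read together, 0 of the 10 genes were called by edgeR, by DESeq2 or by limma-voom without the block, and 0 of the 10 had an unadjusted edgeR p under 0.05. In the whole table edgeR called 24 genes (0.139%), and 8.46% had an unadjusted p under 0.05. The log2 fold change was positive for 5 members and negative for 5, with a median of 0.0087, beside −0.0013 over all genes. Libraries of the lines overlapped for all 10, whereas 14.7% of the 14059 genes with a mean of at least 1 CPM had no overlap. The exact two-sided permutation test over the 6 libraries gave p between 0.2 (APEX1) and 1.0 (NEIL1), and 0.10 is the smallest p that 3 libraries against 3 allow.

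Pairing the libraries narrowed the intervals. With the pair as a block, 1 of the 10 genes was called (UNG) and 3 had an unadjusted edgeR p under 0.05 (UNG, APEX1 and NTHL1), while 3407 genes of the table were called (19.7%), 9.32% higher and 10.4% lower. The other 9 members had adjusted p-values of 0.0648 to 0.753, and their 95% intervals all lay between −0.31 and 0.23 on the log2 scale. UNG, XRCC1 and LIG3 were higher in pBabe-GNA13 in 3 of 3 pairs and APEX1 was lower in 3 of 3, so that 4 of 10 members moved one way, beside 53.1% of genes at 1 CPM or more.

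**Figure D2:**
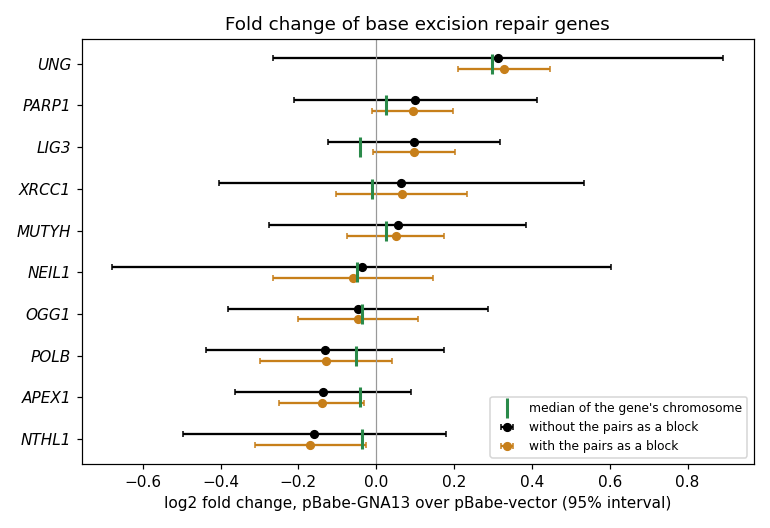
Log2 fold change of pBabe-GNA13 over pBabe-vector with 95% intervals for each gene, without the pairs as a block (black) and with them (orange), beside the median of the gene's own chromosome (green tick). With the block only the intervals of UNG, APEX1 and NTHL1 leave out 0, and the tick of UNG, at 0.30, lies inside the blocked interval of 0.21 to 0.45.

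UNG lies on a chromosome whose genes stood higher together in pBabe-GNA13. Among chromosome 12 genes with a mean of at least 1 CPM, 93.7% had a positive log2 fold change, the median was 0.30, and 450 of 620 (72.6%) were called with the block. Within 5 Mb on either side of UNG, 72 genes had a median log2 fold change of 0.24, and 90.3% of them were positive. Relative to its chromosome, UNG differed by 0.02 without the block and by 0.03 with it (edgeR adjusted p = 0.769). When each chromosome was centred on its own median, 0 of the 10 members were called with the block, against 2401 genes of the table (13.9%). ACACB, an acetyl-CoA carboxylase gene on the same strand whose annotated interval overlaps that of UNG without shared exon bases, had a log2 fold change of 0.44 and was called with the block (edgeR adjusted p = 0.000171). For the other members the chromosome median lay between −0.05 and 0.03, and LIG3 came closest to a call after centring, at 0.14 with the block (edgeR adjusted p = 0.0747).

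The genes that adjoin the members were counted in the same libraries. TSC2, the neighbour across the NTHL1 window printed above, had 129 ± 10.5 CPM in pBabe-GNA13 and 135 ± 3.81 in pBabe-vector (SD, n = 3), a log2 fold change of −0.07 beside −0.16 for NTHL1. OSGEP, across the APEX1 window, had 27.3 ± 2.89 and 31.5 ± 2.43 CPM, or −0.21 as a log2 fold change (edgeR adjusted p unpaired = 0.753, paired = 0.0232) beside −0.14 for APEX1. Both partners of these shared start regions thus stood lower in pBabe-GNA13 by their means, and 1 of the 4 genes, OSGEP, was called with the block. The exons of some opposite-strand neighbours overlap those of members, by 491 bases for TOE1 (log2 fold change −0.02) and MUTYH, by 2175 bases for CAMK1 (0.10) and 356 bases for TADA3 (−0.08) with OGG1, by 1832 bases for MAN2C1 (0.02) and NEIL1, and by 92 bases for TMEM55B (0.06) and APEX1. LIG3 shares 3754 exon bases with RFFL, which was higher in pBabe-GNA13 with the block (0.48, edgeR adjusted p = 5.13e-06), and 180 with CCT6B, which was lower (−0.43, edgeR adjusted p = 0.00567). PINLYP, whose interval overlaps that of XRCC1 in part, was near the floor. Whether counting used the strand is not given in the sources used here, so reads in these shared stretches cannot be told apart. Processed copies annotated as UNGP1, UNGP3, PARP1P1 and PARP1P2 could likewise share reads with UNG and PARP1.

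Most of the spread of these genes lay between pairs of libraries rather than between lines. Splitting the sum of squares of log2 CPM, the pair took a median of 75.9% over the members and the line 15.7%, beside 70.2% and 12.6% over all genes at 1 CPM or more. XRCC1 was the extreme, with 98.0% between pairs and 1.82% between lines, followed by MUTYH with 94.2% and 2.5%. APEX1 was the member with the most between lines, 52.2%, and the least between pairs, 22.4%. In 7 of the 10 genes the highest library was a replicate 3 library, and in 7 the lowest was a replicate 2 library. The same count was not made over all genes, so it cannot be read as particular to these members. Genes of the G1/S transition, a list of 15 such as MCM2 and CCNE2, moved with the same pairs: they summed to 2826 and 3043 CPM in the replicate 3 libraries of pBabe-GNA13 and pBabe-vector, to 1736 and 1626 in the std pair and to 1204 and 1376 in replicate 2. The 15 genes of G2/M had sums of 2032 and 2252, 1375 and 1441, and 978 and 1085 CPM in the same order. UNG followed this order in pBabe-GNA13, with replicate 3 above std and std above replicate 2, but not in pBabe-vector, where std (62.7 CPM) lay below replicate 2 (65.7 CPM). Whether the state of the cell cycle sets the pair differences of the members was not tested.

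**Figure D3:**
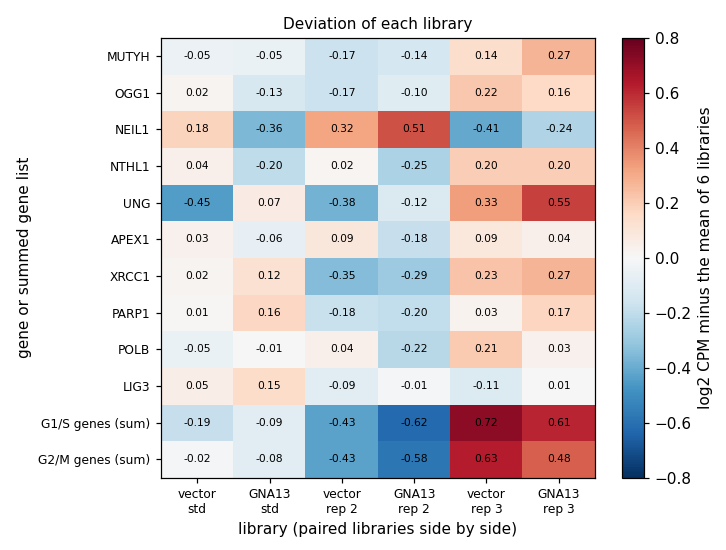
Deviation of each library from the mean of 6 libraries in log2 CPM, for the 10 genes and for the summed G1/S and G2/M genes, with red above and blue below the mean and paired libraries side by side. The replicate 3 columns are positive for every gene shown other than NEIL1 and LIG3, as they are for the cell cycle sums, and NEIL1 has the opposite sign there.

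Levels differ far more between the members than between the lines. Expressed per kilobase of annotated exon (RPKM, which is CPM divided by the length in kilobases), APEX1 stood at 176 ± 4.06 in pBabe-vector (SD, n = 3) and PARP1 at 33.4 ± 2.59. Among the glycosylases the level was 14.9 ± 4.76 for UNG, 12.5 ± 0.853 for NTHL1, 6.37 ± 0.697 for MUTYH, 2.98 ± 0.739 for NEIL1 and 2.49 ± 0.333 for OGG1. The ligase gene LIG3 stood at 5.71 ± 0.354, the scaffold gene XRCC1 at 5.64 ± 1.10 and the polymerase gene POLB at 4.51 ± 0.418. Ordered by level, APEX1 exceeded PARP1, PARP1 exceeded UNG and NTHL1 exceeded MUTYH in every library of both lines, and the ranges of all other neighbours overlapped. The order holds for one choice of length. With the longest transcript as the length, PARP1 came to 99.0, NTHL1 (28.4) and UNG (27.4) exchanged places with overlapping ranges, and POLB (13.8) moved above MUTYH (13.5), while APEX1 stayed highest and OGG1 lowest.

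**Figure D4:**
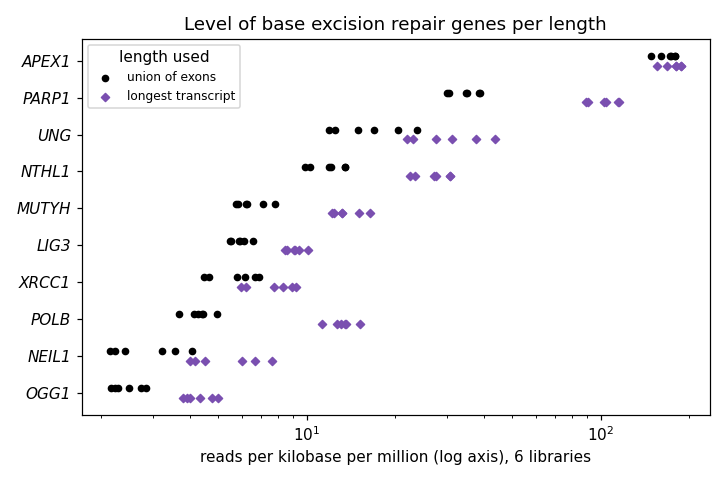
Level of each gene in RPKM on a log axis, 1 point per library for 6 libraries, with length taken as the union of exons (black circles) or the longest transcript (purple diamonds). APEX1 lies above PARP1 with either length, and the choice of length moves PARP1 and POLB the most.

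Other parts of DNA repair give the setting. Over 6 lists with 79 genes in the table (82 listed), 0 genes were called without the block by edgeR, DESeq2 or limma-voom, and 3 had an unadjusted edgeR p under 0.05. With the block 18 were called (22.8%, beside the 19.7% of the table), 8 higher and 10 lower. After the chromosomes were centred 9 were called, where 13.9% of the table was called. These 9 include PCNA, XPC and BARD1, which were not called with the block before centring. Their centred log2 fold changes were 0.22, 0.20 and −0.16 (edgeR adjusted p = 0.00608, 0.0322 and 0.0362). Before centring the blocked values were 0.01, 0.16 and −0.09. PCNA itself had means of 217.0 CPM in pBabe-GNA13 and 217.2 in pBabe-vector. Its centred value is relative to the chromosome 20 median of −0.21 and is not a higher RNA level. Among the 8 genes called higher before centring 3 lie on chromosome 12.

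Of the 6 other glycosylases, whose median log2 fold change was 0.04, 2 were called with the block. TDG, which removes thymine and oxidised methylcytosine, was 95.8 ± 15.6 CPM in pBabe-GNA13 and 80.5 ± 6.99 in pBabe-vector (log2 fold change 0.25, edgeR adjusted p unpaired = 0.732, paired = 0.00173). It lies on chromosome 12, like UNG, and was not called after centring (−0.05, edgeR adjusted p = 0.621). MPG, the glycosylase of alkylated purines, was lower at 26.4 ± 0.569 against 30.5 ± 3.61 CPM (edgeR adjusted p = 0.0374 with the block), and SMUG1, a second uracil glycosylase, was not called (0.13 on the log2 scale with the block, edgeR adjusted p = 0.240).

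Of 22 genes for end processing, gap filling and ligation (median −0.02), APTX, POLD3 and POLE were called higher and RFC1 and HMGB1 lower with the block. HMGB1, a chromatin protein that can assist base excision repair and has many processed copies in the genome that could share its reads, had 481, 368 and 571 CPM in pBabe-GNA13 and 729, 600 and 810 CPM in pBabe-vector. The lines did not overlap, and the log2 fold change of HMGB1 was −0.59 (SE 0.18, edgeR adjusted p unpaired = 0.3995, paired = 1.37e-09), at −0.59 also after centring (edgeR adjusted p = 2.02e-09). POLE, the catalytic subunit of the leading-strand polymerase, differed by 0.37 on the log2 scale with the block (edgeR adjusted p = 9.29e-06) and by 0.07 relative to chromosome 12, where it was not called (edgeR adjusted p = 0.437). APTX, which removes failed ligation products, had 0.20 (edgeR adjusted p = 0.0107 with the block).

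The 7 genes that cleanse the nucleotide pool had the lowest median, −0.14, with 0 called higher and 3 lower with the block. SAMHD1, which breaks down deoxynucleotides, was 71.0 ± 11.96 CPM in pBabe-GNA13 and 94.2 ± 13.7 in pBabe-vector without overlap (log2 fold change −0.41, edgeR adjusted p = 0.523). Chromosome 20, on which SAMHD1 lies, had a median of −0.21, and with pairs and centring SAMHD1 differed by −0.20 (edgeR adjusted p = 0.0106). NUDT18, a hydrolase of oxidised nucleotides, was 12.6 ± 1.28 against 15.9 ± 1.36 CPM (−0.34, edgeR adjusted p unpaired = 0.545, paired = 0.00756). DUT, which keeps dUTP from entering DNA and so acts ahead of UNG, had −0.16 with the block (edgeR adjusted p = 0.0320). It was not called after centring (−0.11, edgeR adjusted p = 0.175).

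Of 8 mismatch repair genes (median 0.06), MSH3 and MSH6 were called higher with the block, at log2 fold changes of 0.21 and 0.17 (blocked edgeR adjusted p = 0.0399 and 0.0358). In nucleotide excision repair (18 genes, median 0.03) DDB2, a sensor of ultraviolet damage, was called higher with the block (log2 fold change 0.47, edgeR adjusted p unpaired = 0.632, paired = 2.58e-05), as was GTF2H3 on chromosome 12 (0.24, 0.00146 with the block by edgeR), and DDB1 was called lower (−0.15, 0.0412 with the block by edgeR). Of 18 genes of double-strand break repair (median −0.05), XRCC6 (−0.21, edgeR adjusted p = 0.00201 with the block) and PRKDC (−0.15, 0.0352) were called lower, and XRCC2 was not (−0.17, 0.0718). Of the genes called with the block in these lists, HMGB1, POLD3, SAMHD1, NUDT18, MSH3 and DDB2 were still called after the chromosomes were centred.

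**Figure D5:**
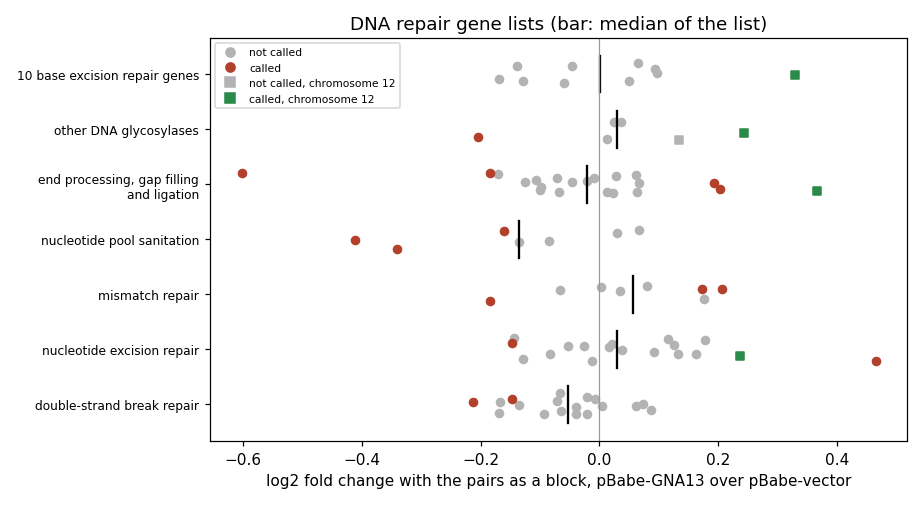
Log2 fold change with the pairs as a block for the 10 genes and the 6 other repair lists, 1 point per gene, coloured where edgeR called it, with squares for genes on chromosome 12 and a black bar at the median of each list. APLF, near the floor of counts, is not drawn, and the blocked values of HMGB1 (−0.60) and DDB2 (0.47) are the lowest and the highest shown.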

How the data were processed

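Read counts per gene from RNA-seq of 6 LNCaP libraries were used, 3 of pBabe-vector and 3 of pBabe-GNA13. The authors checked reads with FastQC 0.11.7, aligned them with STAR to Gencode 38 and counted them with featureCounts of Rsubread 1.30.9, and the values they deposited are whole-number counts per gene symbol, not normalised. The version of STAR, the strand setting and the selection of 17297 symbols are not given in the sources used here. Columns are headed by line and number, and 1 column per line also carries a tag, std. In pBabe-GNA13 the tagged heading repeats the number 2, so it was tied to its line only, and 0 columns were left out.

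Counts were normalised by TMM and tested by the quasi-likelihood functions glmQLFit and glmQLFTest (edgeR 4.0.16 in R 4.3.3) over the full 17297 genes, low counts included, with the line as the only term and Benjamini-Hochberg adjustment. A gene was called at an adjusted p under 0.05. SE and 95% intervals are of the Wald kind from that fit, and log2 CPM used a prior count of 2. Single genes were also tested by an exact two-sided permutation test (SciPy 1.17.1, Python 3.11.15). Depth was 33002160 to 40628970 counts per library, and members had 416 to 26747 counts in a library. These depths and counts bear on counting error only. The SE and intervals also take in the spread between libraries that the fit estimates.

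Same-numbered or std libraries of the lines were taken as pairs, because their deviations from the group means correlated over 14059 genes (Pearson's r across genes of 0.603, 0.729 and 0.841, against −0.692 to 0.0579 for other combinations). For each gene the deviations of a line sum to 0, so lower values for other combinations are partly built in. The correlations come from the same counts as the blocked fits. Results with pairs blocked are given where they change a call. Of the symbols, 14392 were placed on Gencode 44 for positions, exon lengths and chromosome medians.

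Alternatives were the block, DESeq2 1.42.0, limma-voom (limma 3.58.1), other size factors, library totals, a minimum of 1 CPM, the newer quasi-likelihood method, centring of chromosomes, and leaving out libraries or pairs. Blocked DESeq2 and limma-voom were added after the data were seen. Genes named are the 10 members, GNA13, the 3 genes of each repair list with the smallest blocked p, other list genes called and neighbours that overlap a member or start within 1000 bases. Some genes under this rule are not reported here. Members, lists and alternatives were chosen with earlier results of these data known. The fits were tested on simulated counts. NHEJ1, GTF2H4, PTPRC and CD3E were listed and are not analysed here.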

Additional observations from a re-analysis of the deposited data

How the results depend on the processing

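Without the block, edgeR called 24 genes of the table, and DESeq2 called 280 and limma-voom 10. Leaving out 1 library gave 2 to 15 (2 without the std library of pBabe-GNA13, 15 without its replicate 2). With the block, 3407 were called, 3266 without the std pair, 2550 without the replicate 2 pair, 2250 without the replicate 3 pair, 1988 by DESeq2, 2659 by limma-voom and 2401 with chromosomes centred. Other repair genes called went from 0 to 18 with the block, to 14, 12 and 10 without the std, replicate 2 and replicate 3 pair, 9 by DESeq2, 13 by limma-voom and 9 with chromosomes centred. Members called went from 0 to 1 with the block (1 also by DESeq2 or limma-voom and without the replicate 2 or replicate 3 pair, 2 without the std pair), and to 0 with chromosomes centred. The block changed no call of a member other than UNG, at a log2 fold change of 0.33 (0.24, 0.36 and 0.40 without the std, replicate 2 and replicate 3 pair, edgeR adjusted p of 0.00223, 4.20e-06 and 2.61e-06, and 0.33 by DESeq2 and by limma-voom with the block). Without the block, leaving out 1 library moved UNG from 0.10 (without replicate 3 of pBabe-GNA13) to 0.61 (without replicate 3 of pBabe-vector). APEX1 reached −0.16 in the block without the std pair.

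The median over members, 0.0088, went to 0.0599 in the block without the std pair and ranged from −0.0627 to 0.0609 when 1 library was left out. OGG1 turned to 0.0091 and NEIL1 to 0.19 in the block without the std pair, and NEIL1 to 0.0119 with chromosomes centred. Leaving out 1 library gave −0.0721 to 0.142 for MUTYH, −0.138 to 0.0542 for OGG1, −0.36 to 0.131 for NEIL1 and −0.0765 to 0.211 for XRCC1, none of them called. With the longest transcript as length the levels in pBabe-vector were 184 for APEX1, 99.0 for PARP1, 28.4 for NTHL1, 27.4 for UNG, 13.8 for POLB, 13.5 for MUTYH, 8.79 for LIG3, 7.55 for XRCC1, 5.57 for NEIL1 and 4.37 for OGG1 RPKM. The causes were not tested. Where libraries were left out, their number and their identity changed together. The alternative pseudocount applied to normalised values and was not run on counts. With 3 libraries a line, the unpaired 95% intervals of the members reached from −0.68 (lower end of NEIL1) to 0.89 (upper end of UNG) on the log2 scale.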
